A study of Homo sapiens with 2 samples.

Results

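The peaks described here are those that a TCF4 antibody gave on human chromosome 19, the autosome with the most genes for its length. They were taken as every row of the deposited peak list placed on chromosome 19 of the build hg38, which gave 1639 of 26642 peaks, and no measured value entered the choice. The other 25003 peaks lie on the other 23 chromosomes. The study mapped DNA bound by TCF4 in CAL-27 cells, a line derived from a squamous carcinoma of the tongue, grown as spheres. The 2 groups in the labels are TCF4 antibody and IgG antibody, each with 1 library of this 1 line, and the labels name no other agent or allele. The list belongs to the TCF4 antibody library, while the IgG library is not analysed here. Nothing below therefore has a replicate check, no test is given, and a site of TCF4 was not separated from DNA that any antibody would recover. Intervals cover counting error in this library alone, and PCR copies are not independent molecules.

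TCF4 names a basic helix-loop-helix protein, an E protein, which binds the E-box, CANNTG, as a dimer. The same name is in common use for TCF7L2, a partner of beta-catenin that binds letters containing CTTTGA at Wnt target genes. The labels do not say which protein the antibody recognises. Chromosome 19 is rich in G and C and in CpG islands, holds many widely expressed housekeeping genes, and also carries tandem families. These include many of the Kruppel-type zinc finger genes, whose proteins repress transcription and retroelements, as well as the kallikreins, the leukocyte receptors and a large microRNA cluster.

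The 7 promoters below are examples picked after their values were seen, and they do not stand for the peaks in general, most of which lie away from gene ends. Each is the 250 bases before a RefSeq gene start (GRCh38.p14, the assembly of hg38), written 5′ to 3′ on the strand of the gene, and each holds a summit, the base of a peak with the most fragments. Capitals mark the E-box CANNTG, the TCF7L2 letters CTTTGA and the box CCAAT on either strand, and overlapping matches share capitals. NAPA, at chr19:47515064-47515313 on the minus strand, had the highest fold enrichment on the chromosome. TOMM40, at chr19:44891004-44891253 on the plus strand, had the most fragments at a summit. CHAF1A, at chr19:4402390-4402639, SNRNP70, at chr19:49085201-49085450, BAX, at chr19:48954625-48954874, and TIMM50, at chr19:39480588-39480837, are on the plus strand and stand for chromatin assembly, splicing, cell death and mitochondrial import. LYPD3, at chr19:43465609-43465858 on the minus strand, is a surface protein of stratified epithelium.
NAPA: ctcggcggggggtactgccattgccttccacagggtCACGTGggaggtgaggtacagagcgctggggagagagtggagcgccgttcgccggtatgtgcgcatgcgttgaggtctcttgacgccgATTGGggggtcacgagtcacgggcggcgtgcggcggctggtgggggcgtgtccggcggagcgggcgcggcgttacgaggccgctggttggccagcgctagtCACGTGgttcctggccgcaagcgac
TOMM40: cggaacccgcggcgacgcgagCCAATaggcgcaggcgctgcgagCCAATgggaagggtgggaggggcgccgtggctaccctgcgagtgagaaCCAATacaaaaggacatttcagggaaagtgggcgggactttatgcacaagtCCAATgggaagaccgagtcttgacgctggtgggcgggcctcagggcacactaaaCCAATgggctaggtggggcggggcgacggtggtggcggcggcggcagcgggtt
CHAF1A: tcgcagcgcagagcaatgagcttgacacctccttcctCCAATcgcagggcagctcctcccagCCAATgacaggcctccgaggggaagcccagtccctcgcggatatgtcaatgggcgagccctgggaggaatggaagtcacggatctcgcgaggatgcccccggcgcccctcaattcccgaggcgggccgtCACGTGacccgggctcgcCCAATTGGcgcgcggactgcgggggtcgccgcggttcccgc
SNRNP70: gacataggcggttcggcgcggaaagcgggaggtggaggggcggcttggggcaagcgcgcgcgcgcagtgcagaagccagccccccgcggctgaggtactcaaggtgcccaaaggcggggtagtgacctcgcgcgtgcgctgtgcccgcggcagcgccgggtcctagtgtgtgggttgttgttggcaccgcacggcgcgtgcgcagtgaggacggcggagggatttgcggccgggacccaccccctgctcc
BAX: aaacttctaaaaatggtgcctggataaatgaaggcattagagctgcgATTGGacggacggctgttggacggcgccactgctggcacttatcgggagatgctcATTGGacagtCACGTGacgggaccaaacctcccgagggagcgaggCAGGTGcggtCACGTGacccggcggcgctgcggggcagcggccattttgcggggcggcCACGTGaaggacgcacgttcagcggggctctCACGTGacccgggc
TIMM50: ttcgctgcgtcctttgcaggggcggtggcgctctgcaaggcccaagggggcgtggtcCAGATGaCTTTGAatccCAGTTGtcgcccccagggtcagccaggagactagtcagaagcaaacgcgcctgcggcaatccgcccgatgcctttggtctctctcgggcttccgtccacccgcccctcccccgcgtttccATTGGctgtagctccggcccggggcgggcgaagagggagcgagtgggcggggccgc
LYPD3: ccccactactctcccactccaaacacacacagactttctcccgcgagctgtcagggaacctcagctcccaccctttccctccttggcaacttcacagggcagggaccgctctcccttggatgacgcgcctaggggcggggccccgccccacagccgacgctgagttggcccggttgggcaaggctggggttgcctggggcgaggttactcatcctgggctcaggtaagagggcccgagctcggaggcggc

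The 7 promoters differ in the letters they hold. NAPA holds 2 E-boxes, both CACGTG, and its summit lies at base 53 of the printed run. TOMM40 holds no E-box and no CTTTGA but 5 copies of CCAAT, the core letters bound by the factor NF-Y, and its summit lies at base 57. CHAF1A has 2 E-boxes and 4 copies of CCAAT, a pair of which overlap an E-box. BAX holds 5 E-boxes and 2 copies of CCAAT, and TIMM50 is the only one of the 7 with CTTTGA. SNRNP70 and LYPD3 hold none of these letters, at folds of 14.5 and 4.73. A match is a run of letters and not a binding site.

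Chromosome 19 had more peaks for its length than any other chromosome. Its 58.5 Mb between the first and last gene record held 28.0 peaks per Mb (95% exact Poisson interval 26.7 to 29.4), against 8.45 per Mb over the other chromosomes together. Chromosomes 17 and 22 followed with 19.5 and 17.9 per Mb. The peaks covered 425 kb, or 0.726% of the span, the highest share of the 24 chromosomes. Gene density had the same order at the top, with 24.1 protein-coding genes per Mb on chromosome 19, 13.9 on chromosome 17 and 10.9 on chromosome 22. Counted per protein-coding gene, chromosome 19 had 1.16 peaks and ranked 19 of 24, below 1.40 on chromosome 17 and 1.63 on chromosome 22.

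**Figure D1:**
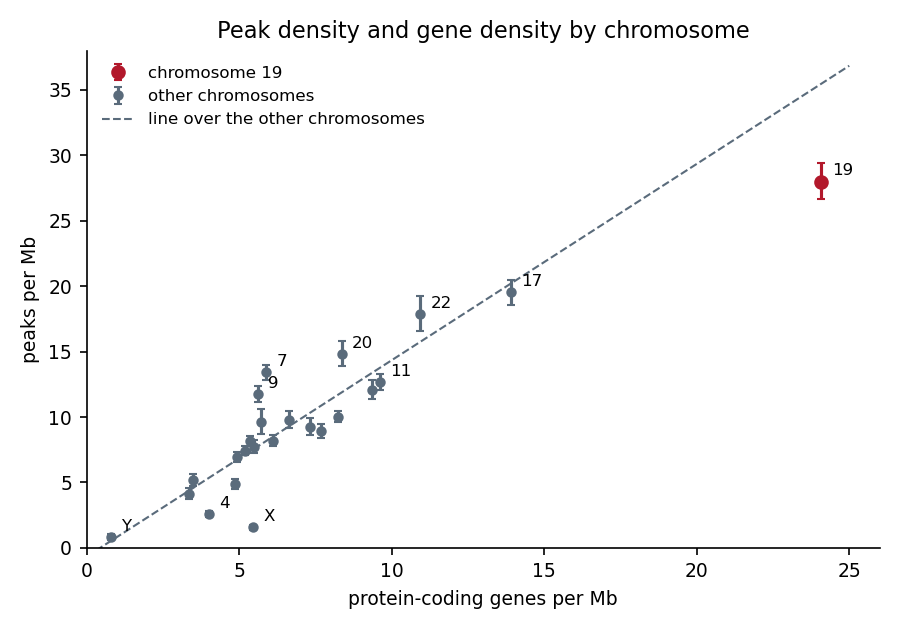
Peaks per Mb (vertical axis) against protein-coding genes per Mb (horizontal axis) for chromosome 19 (red) and the 23 other chromosomes (grey), with 95% exact Poisson intervals and a dashed line fitted over the other chromosomes. Chromosome 19 has the highest value on both axes and lies below the line, at 28.0 where the line reads 35.5.

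Over the 23 other chromosomes, peaks per Mb followed genes per Mb with a Pearson r of 0.875 and a Spearman rho of 0.892, given as a description of chromosomes that share 1 library. The line through them reads 35.5 peaks per Mb at the gene density of chromosome 19, and the measured 28.0 is 0.789 of it. The line runs past the data there, since no other chromosome has more than 13.9 genes per Mb. The plot of peak density against gene density shows chromosome 19 apart from all others on both axes. Without chromosomes 7, 9 and Y the line reads 36.5 and the ratio is 0.768.

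Set against length, chromosome 19 stood 3.65 times above the other chromosomes inside protein-coding genes and 1.11 times at their ends. Each summit was given 1 class, in the order within 1 kb of an end of a protein-coding gene, within 1 kb of an end of another gene, within a protein-coding gene, within any other gene, and between genes. On chromosome 19, 659 summits (40.2%, Wilson interval 37.9 to 42.6%) lay at protein-coding gene ends, against 31.7% on the other chromosomes. Inside protein-coding genes lay 670 (40.9%, 38.5 to 43.3%), against 31%. Between genes lay 190 (11.6%), against 23.3%. Such shares move with how much of a chromosome is gene end, which was 8.58% of the span of chromosome 19 and 2.27% of the others. Per Mb of gene-end sequence, chromosome 19 had 131 summits (121 to 142) and the other chromosomes had 118 (115 to 120), a ratio of 1.11. Leaving out the 10% of all peaks with the highest local background gave 101 (92.1 to 110) on chromosome 19 and 106 (103 to 108) elsewhere. The order turned there, but these intervals overlap. That cut fell harder on chromosome 19, leaving 506 of its 659 summits at gene ends, against 7097 of 7920 on the others.

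Per Mb of sequence inside protein-coding genes, chromosome 19 had 24.4 summits (22.6 to 26.4), against 6.70 (6.55 to 6.85) on the other chromosomes, a ratio of 3.65. The ratio was 4.42 once peaks under 5 in −log10 q were left out, and 3.35 without the 10% of highest background. In gene interiors more than 5 kb from any protein-coding gene end, the values were 20.8 per Mb on chromosome 19 and 5.92 per Mb elsewhere. Between genes they were 10.2 and 4.62. Chromosomes 17 and 22 had 13.8 and 14.2 summits per Mb inside protein-coding genes, below chromosome 19, and 147 and 137 per Mb at gene ends, with intervals that overlap that of chromosome 19. Some interior summits lie at inner starts, since 78 of the 670 on chromosome 19 (11.6%), against 10.3% elsewhere, were within 1 kb of a start in the promoter table.

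**Figure D2:**
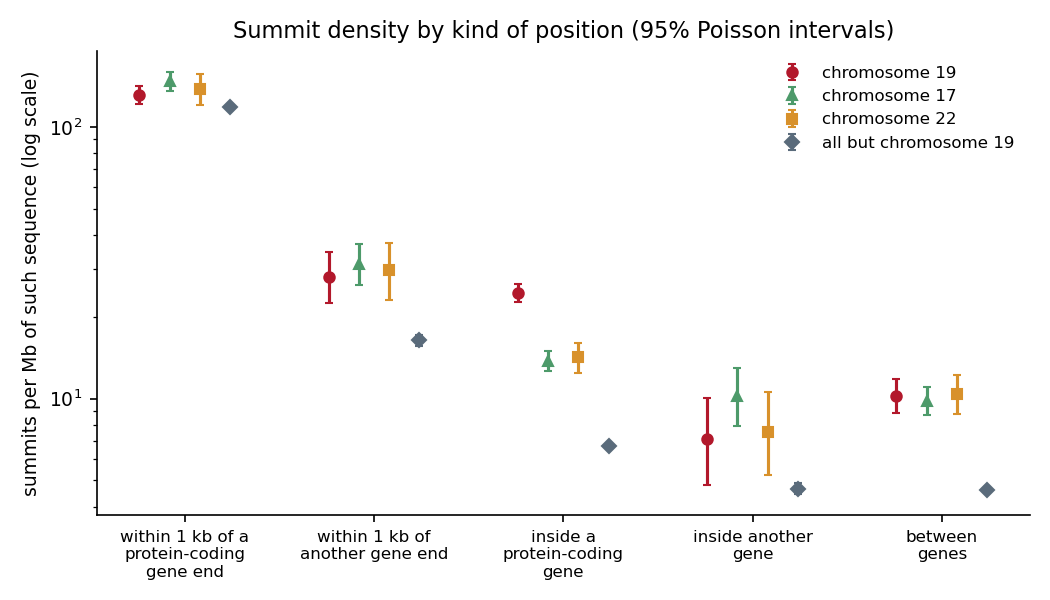
Summits per Mb of each kind of sequence (vertical axis, log scale) for chromosome 19 (red), chromosomes 17 (green) and 22 (orange), and all chromosomes but 19 (grey, which includes 17 and 22), with 95% exact Poisson intervals. At gene ends the 4 sets lie between 118 and 147, and inside protein-coding genes chromosome 19 stands at 24.4 above the other 3.

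The peaks of chromosome 19 rested on more fragments over a higher background, at about the same fold. The fold enrichment is the authors' ratio of fragments at the summit to the local background of the peak caller, and its median was 5.097 on chromosome 19 and 5.13 on the other chromosomes. The number of fragments at each summit was recovered from the fold and the p-value, and its median was 14 on chromosome 19, with quartiles of 9 and 22, against 10 on the others, with quartiles of 7 and 15. The local background had a median of 1.66 fragments on chromosome 19 and 0.932 on the others. Median peak width was 194 bp on chromosome 19 and 174 bp on the others. A −log10 q of at least 5 was reached by 50.7% of chromosome 19 peaks and 40.6% of the others. The higher background moved with the higher number of fragments, and its part in the counts of peaks was not tested.

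The more fragments a chromosome 19 summit had, the more often it lay at a protein-coding gene end. With 5 to 7 fragments the share was 20.8% (15.7 to 27.0%), and on the other chromosomes it was 18.0%. With 16 to 30 fragments it was 51.7% (47.2 to 56.2%), against 46.0%. Of the 39 summits with more than 60 fragments, 28 lay at an end (71.8%, 56.2 to 83.5%), against 41.1% (35.3 to 47.1%) of 263 on the other chromosomes. Summits at ends on chromosome 19 had a median fold of 6.02 and a median width of 262 bp, and those away from ends had 4.80 and 166 bp.

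At gene starts, the summits stood slightly upstream. A start is known here for 1185 of the 1410 protein-coding genes of chromosome 19, and 558 summits (34.0% of the peaks) lay within 1 kb of one, against 29.2% on the other chromosomes (without chromosome 8, for which no starts were used). Of these, 392 lay upstream of the start (70.3%, 66.3 to 73.9%), against 61.3% (60.1 to 62.4%) elsewhere. The median offset was 79.5 bp upstream on chromosome 19 and 46 bp upstream on the others. The profile around starts shows the fullest 100 bp bins on chromosome 19 just upstream, with 8.42% of all its peaks from 100 bp upstream to the start and 7.81% in the bin before that. The other chromosomes had 7.53% and 5.48% in those bins.

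**Figure D3:**
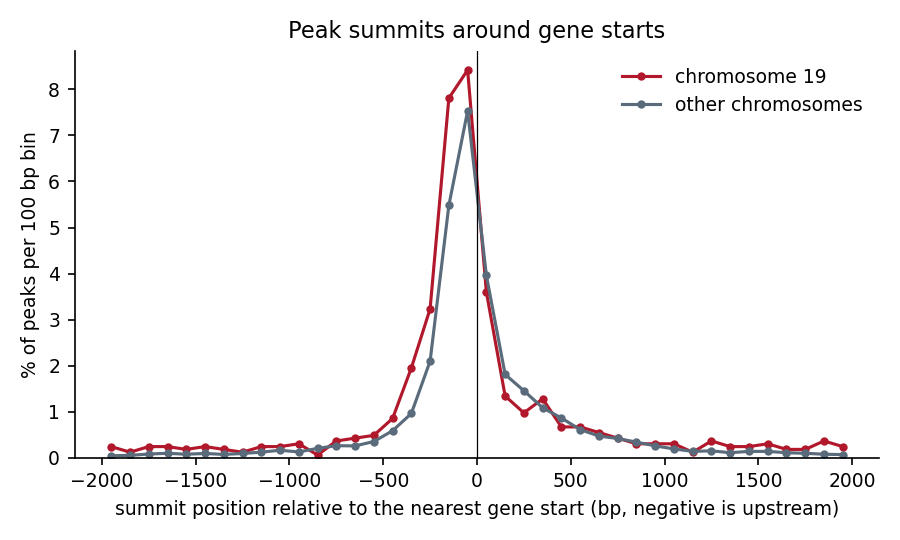
Share of peaks (vertical axis, % per 100 bp bin) by the distance of the summit from the nearest listed gene start (horizontal axis, bp, negative upstream), for chromosome 19 (red) and the other chromosomes (grey). The chromosome 19 line reaches 8.42% just before the start and lies above the other from 500 bp upstream to the start.

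Gene finishes, the opposite ends of the transcripts, held more summits on chromosome 19 than elsewhere. The insides of protein-coding genes did too, with 24.4 against 6.70 summits per Mb. Whether finishes stand above that general density was not tested. A finish with no known start, and no end of a gene of unknown strand, within 1 kb of the summit accounted for 88 peaks (5.37%, 4.38 to 6.57%), against 1.51% (1.36 to 1.67%) on the other chromosomes. Such a summit was found at 81 of 1185 finishes (6.84%) on chromosome 19, against 2.36% elsewhere. The strongest, named after their values were seen, stood at GNG8, a G protein gamma subunit, with a fold of 15.3 on 68 fragments, and at EIF3K, a translation initiation subunit, with a fold of 10.6 on 29 fragments. The peak at the finish of DMPK, the muscular dystrophy kinase, had 68 fragments and a fold of 8.09, and the one at CNFN, cornifelin of the cornified envelope, had a fold of 8.06 on 19 fragments.

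Of the 1410 protein-coding genes of chromosome 19, 630 held a summit no more than 1 kb from an end, which is 44.7% (42.1 to 47.3%), beside 41.5% over all 19862 protein-coding genes and 41.2% (40.5 to 42.0%) on the other chromosomes. That placed chromosome 19 at rank 9 of 24. Among peaks of at least 10 in −log10 q the shares were 21.9% on chromosome 19 and 13.6% elsewhere. Without the 10% of peaks with the highest background the order turned, to 35.9% on chromosome 19 and 37.7% elsewhere. The chromosome 19 interval, 33.4 to 38.4%, spans the value elsewhere. That cut took a larger part of the gene-end summits of chromosome 19, leaving 506 of 659, against 7097 of 7920 elsewhere. At the 5′ end of the gene record, for genes of known strand, the shares were 40.8% on chromosome 19 and 41.4% elsewhere, with overlapping intervals. At the opposite end of the record they were 10.04% and 4.37%. A listed start can lie away from the 5′ end of its record. A further 200 genes had summits inside only, and 580 had none.

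Many chromosome 19 genes lie back to back, and a peak can serve several ends. Of the 659 summits at protein-coding gene ends, 527 lay near the end of 1 gene, 126 near 2 genes and 6 near 3. The median fold was 5.82 for summits at 1 gene and 6.76 at 2 genes. At 57 summits the starts of 2 genes on opposite strands both lay within 1 kb, with a median fold of 7.67 and a median width of 343 bp. SAFB and SAFB2, paralogous nuclear matrix proteins transcribed away from each other, shared such a peak, with a fold of 8.07 on 17 fragments, at 219 and 88 bp from their starts.

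The 10 strongest peaks at gene ends had folds of 16.5 to 24.5. NAPA, the alpha-SNAP that recycles SNARE complexes, stood first with 24.5 on 110 fragments (exact Poisson interval 90.4 to 133), and ranked 34 in the whole list. CARM1, an arginine methyltransferase and coactivator, had a fold of 19.7 on 102 fragments. FBXO27, an F-box protein that recognises glycoproteins, had 18.997 on 73 fragments. These summits lay 198 bp upstream of the start of NAPA, 383 bp upstream of that of CARM1, and 856 bp downstream of that of FBXO27.

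Behind them came ALDH16A1, an aldehyde dehydrogenase family member, with a fold of 17.8, and HDGFL2, a chromatin reader, with 17.7. AP2A1, a clathrin adaptor subunit, had 17.3 on 111 fragments, and TOMM40, the pore of the mitochondrial outer membrane translocase, had 17.3 on 113 fragments. The Poisson intervals of the last 2 counts, 91.3 to 134 and 93.1 to 136 fragments, overlap that of NAPA, so the order of these fragment counts is within counting error. A peak near both ODAD3, of motile cilia, and PRKCSH, glucosidase II beta, had a fold of 16.7 on 49 fragments. ELL, an elongation factor, had 16.6 on 74 fragments, and a peak near both TMEM143 and SYNGR4 had 16.5 on 79.

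Peaks away from protein-coding gene ends reached lower folds. The strongest lay inside SPTBN4, a neuronal spectrin, at chr19:40570600-40571020, with a fold of 15.8 on 53 fragments. The next lay 272 bp from the record LOC105372255, with a fold of 13.7 on 30 fragments, and 4790 bp from LRFN3, a synaptic adhesion protein, with 13.6 on 30 fragments. Peaks inside PPFIA3, a liprin of the synapse, and RFX2, a factor of ciliogenesis and spermatogenesis, had folds of 13.4 and 13.3. The Poisson intervals of these 5 counts of fragments overlap.

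The widest peak, 1311 bp with 107 fragments and a fold of 11.1, lay within 1 kb of an end of both MBOAT7, an acyltransferase of phosphatidylinositol, and TSEN34, a tRNA splicing endonuclease. A peak of 1141 bp lay near NDUFA11, a complex I subunit, and VMAC, and one of 1075 bp near AKT1S1, a regulator of mTORC1, and TBC1D17. All 3 stood at gene pairs. Among the genes with most summits inside were GNG7, a G protein gamma subunit of 191 kb, with 12, and ACTN4, alpha-actinin 4, with 7. DNAJB1, an HSP40 chaperone, and EML2, a microtubule protein, had 6 each, as did ERCC1, MYH14 and SBNO2. GNG7 had no summit at either end.

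Along the chromosome the peaks followed the genes in patches. The short arm side, from the first gene to the gene-free stretch around the centromere, had 851 peaks, or 35.3 per Mb (33.0 to 37.7), and the long arm side had 787, or 25.5 per Mb (23.7 to 27.3). Gene density was similar, at 25.2 and 25.97 protein-coding genes per Mb, while 50.6% (46.6 to 54.5%) of short arm genes and 40.2% (36.9 to 43.7%) of long arm genes had a summit at an end. The 3.50 Mb stretch without genes held no peak. Zinc finger genes numbered 83 of 607 genes on the short arm side and 168 of 803 on the long arm side.

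Over the 55 bins of 1 Mb that held protein-coding genes, peaks and genes correlated with a Pearson r of 0.677 and a Spearman rho of 0.694, as a description of bins from 1 library. The fullest bin, chr19:1000001-2000000, had 82 peaks for 38 genes, and its median background was 3.50 fragments against 1.66 for the chromosome. The emptiest, chr19:24000001-25000000, had 0 peaks and 1 gene. The plot of the bins shows that those in which zinc finger genes are the majority lie low, with 0 to 14 peaks each. These 10 bins had 55 peaks for 141 genes, or 0.390 per gene, against 1.25 per gene in the other 45 bins. Their peaks had a median background of 0.545 fragments, against 1.70 in the others, and the part of the lower background in this was not tested.

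**Figure D4:**
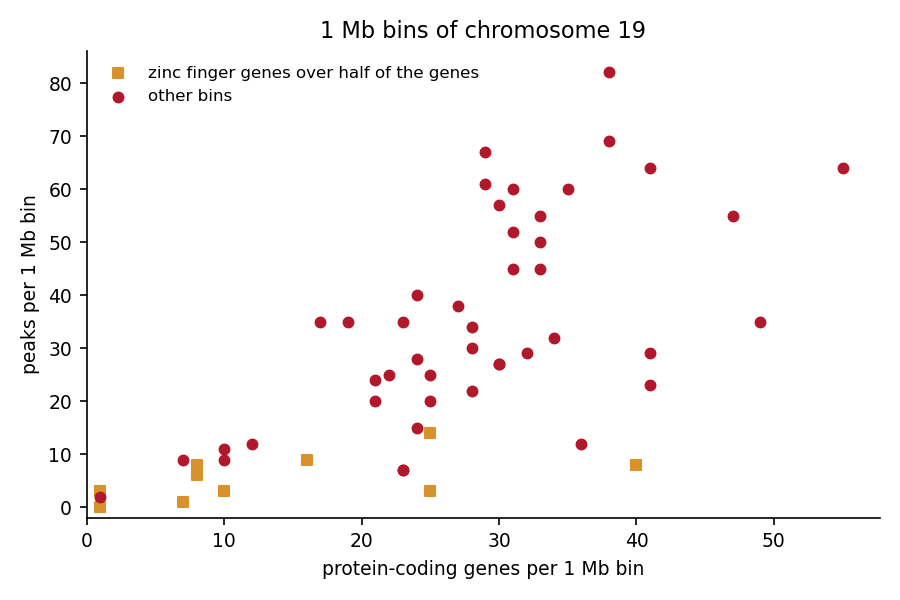
Peaks (vertical axis) against protein-coding genes (horizontal axis) in each 1 Mb bin of chromosome 19 that holds a protein-coding gene, with bins in which zinc finger genes are the majority as orange squares and the 45 other bins as red circles. The squares hold 0 to 14 peaks, and the fullest circle holds 82.

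Zinc finger genes had a summit at an end in 61 of 251 cases (24.3%, 19.4 to 29.97%), against 569 of the other 1159 chromosome 19 genes (49.1%, 46.2 to 52.0%). The 278 zinc finger genes of other chromosomes had one in 43.5% (37.8 to 49.4%). On chromosome 19 the share was 12.2% (14 of 115) in the bins with a zinc finger majority and 34.6% (47 of 136) in the other bins. Genes of other kinds had 42.3% (11 of 26, 25.5 to 61.1%) in the bins with a zinc finger majority and 49.2% in the rest. ZNF473, a factor of histone pre-mRNA processing, reached a fold of 14.7, ZNF557 14.3, ZNF77 13.5 and ZNF576 11.3, while ZFP14 and ZFP28 had no summit at an end. The sources used here do not say how reads shared by near-identical paralogs were placed.

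Lists of chromosome 19 genes were read against the 44.7% over the whole chromosome, and no list has a test. Among the ribosomal protein genes, summits stood at an end of 12 of 13, with a median highest fold of 7.72. RPL18, of the large subunit, had a fold of 10.5, RPL13A 8.65 and RPS9, of the small subunit, 8.58. The respiratory chain and mitochondrial import list had 12 of 17. TIMM44, of the inner membrane import motor, had a fold of 14.3, NDUFA11 11.8 and TIMM50, of the inner membrane translocase, 7.82. ATP5F1D, an ATP synthase subunit, and COX6B1, of cytochrome oxidase, had none.

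DNA replication and repair genes had a summit in 11 of 14 cases. CHAF1A, a chaperone that deposits histones on new DNA, had a fold of 13.6 on 37 fragments. The repair scaffold XRCC1 had 10.7, the maintenance methyltransferase DNMT1 8.97 and DNA ligase LIG1 8.66. The list also holds genes with other main roles, among them MRI1, an enzyme of methionine salvage, and POLRMT, the mitochondrial RNA polymerase. CCNE1, cyclin E1, and MRI1 had none, and UHRF1, the partner of DNMT1, had 4 summits inside only. RNA processing genes had 15 of 18, with SNRNP70 of the U1 particle at 14.5, LSM4 at 12.7, and the spliceosome proteins SNRPD2 and SNRPA at 10.5 and 9.33. LSM7 and PRPF31 had none.

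Among regulators of growth, 7 of 9 genes in the list of immediate early and AP-1 genes had a summit at an end of the gene record. JUND, an AP-1 subunit, led these with a fold of 8.83 on 43 fragments. The early response gene IER2 followed with 7.33, KLF2, a Kruppel-like factor, with 6.50 and SERTAD1 with 5.82. KLF16, named after its value was seen, had 5.19 at a record end. Inside its record, near its listed start, it had a peak of 9.69 on 64 fragments. FOSB, named likewise, had its end summits at the finish only. JUNB, the other Jun gene of the chromosome, and GADD45B had none within 1 kb. A peak upstream of JUNB, at chr19:12789800-12790467, had a fold of 7.84 on 56 fragments but lay outside that window. In the list of TGF-beta and receptor kinase genes 9 of 13 had one, led by the kinase AKT2 with 11.1 and MAP2K7 with 9.52, followed by PIK3R2 with 6.58 and MAP2K2 with 5.66, and not by LTBP4, which had 5 summits inside only, or SHC2. Of 22 cancer genes 18 had one. CIC, a repressor downstream of receptor kinases, had a fold of 12.4 on 100 fragments, and PPP2R1A, a phosphatase scaffold, had 11.8. CEBPA and ARHGEF1 had none at an end.

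Wnt and E protein genes had a summit in 8 of 10 cases. DACT3, an antagonist of Wnt signalling, had a fold of 11.8 on 35 fragments, and PIAS4, a SUMO ligase, had 10.6 on 35. TLE6, a Groucho family member, had 7.87 on 17 fragments and the kinase GSK3A 6.95 on 22. TCF3, which encodes the E proteins E12 and E47 and was named after its value was seen, had a fold of 4.93 on 18 fragments. TLE2 had 3 summits inside only, and LRP3 had none. Among 4 Notch genes, PSENEN, a gamma-secretase subunit, had 8.13 at its finish, in a peak that is also at the start of LIN37, and NUMBL, an endocytic adaptor, 6.73, while NOTCH3 had 3 summits and DLL3 a single summit inside only.

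The list for stratified epithelium, the tissue of the cell line, was not checked against expression. A summit stood at an end in 8 of its 15 genes (53.3%, 30.1 to 75.2%), an interval that spans the 44.7% of the chromosome. Where the strand is known, 4 of 14 had a summit at the 5′ end of the record. These were ICAM1, CAPNS1, LYPD3 and PLAUR, the last named after its value was seen. CNFN, LGALS7 and FXYD3 had theirs at the finish only. SPINT2, a protease inhibitor, had a fold of 10.9 on 30 fragments, CNFN 8.06, CAPNS1, the calpain small subunit, 7.30, and ICAM1, an adhesion molecule, 5.64. BCAM and DMKN, dermokine, had none, nor had KRTDAP and SBSN, also of keratinocytes, LGALS7B or FXYD5, named after their values were seen. In 15 kallikreins, secreted proteases made in skin and glands, 2 had one, KLK6 with 8.14 on 18 fragments and KLK9 with 6.75 on 17, the second at the gene's finish, while KLK1 and KLK10 had none at an end.

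Most members of the families used mainly by other tissues had no summit at an end. The leukocyte receptors had 1 of 38, which was CD70, a TNF family ligand, with a fold of 4.88 on 8 fragments. The CEACAM and PSG genes had 1 of 21, CEACAM16, with 6.33. The cytochrome P450 genes had 2 of 12, CYP4F11 with 7.53 and CYP4F3 with 4.53. In the list of liver and lipoprotein genes, which also holds the embryonic homeobox gene LEUTX, 2 of 11 had one, the Fc receptor FCGRT with 6.33 and complement C3 with 3.71. The muscle and neuron list had 6 of 18, led by SYNGR4 at the shared end above, then HSPB6 with 7.52, ACTN4, which many tissues use, with 7.28 and MYBPC2 with 5.40. Of 20 reproductive genes, such as AMH and CGB1, and of 20 olfactory receptors, such as OR10H1 and OR10H2, 0 had one in either list. These families were not all free of peaks. Summits inside only were held by 8 of 18 muscle and neuron genes, 7 of 38 leukocyte receptors and 3 of 12 cytochrome P450 genes. The reproductive list had 2 such genes, the CEACAM and PSG list 1, and the liver and olfactory lists 0. Over the chromosome there were 200 among 1410 genes.

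**Figure D5:**
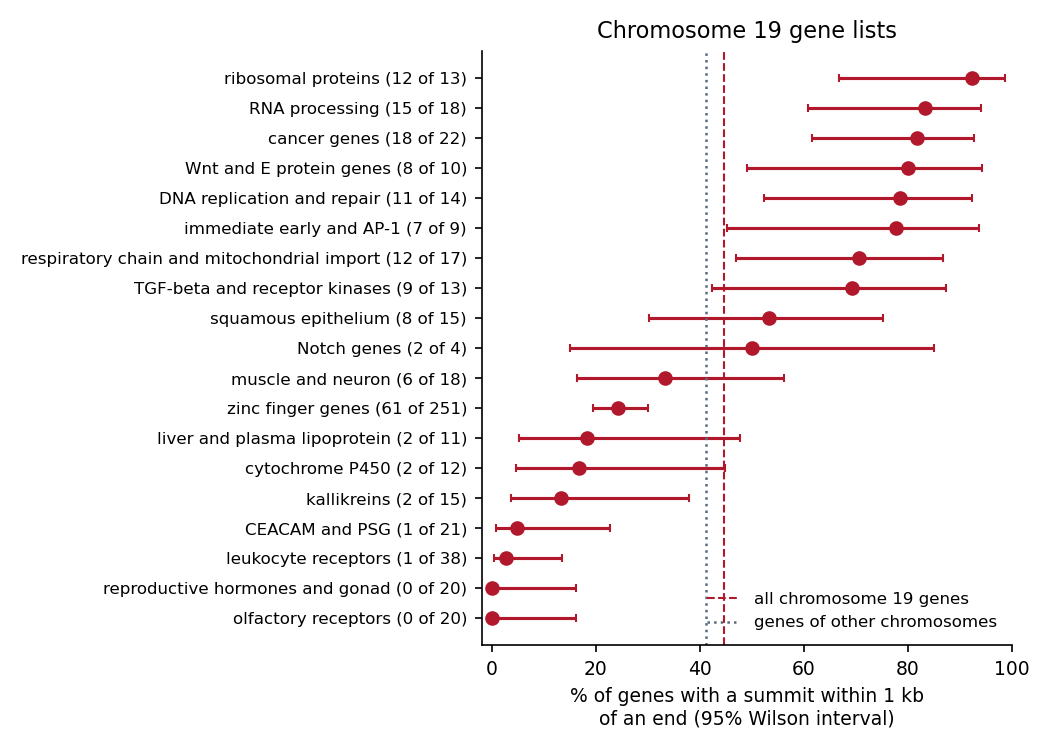
Share of genes with a summit within 1 kb of an end (horizontal axis, %) for each list of chromosome 19 genes, with 95% Wilson intervals. The dashed line is the 44.7% of all chromosome 19 genes and the dotted line the 41.2% of the other chromosomes, and the lists run from 12 of 13 ribosomal protein genes at the top to 0 of 20 at the bottom.

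MicroRNA records had a summit within 1 kb in 20 of 142 cases on chromosome 19 (14.1%), beside 9.15% of all 1913 records. A single peak served the 3 members of a cluster, MIR23A, MIR27A and MIR24-2, whose products are abundant in many cell types. It had a fold of 2.85 on 19 fragments and belonged to a run of 4 peaks on a high background, of the kind described below. That run spanned 10.5 kb, with folds of 2.76 to 3.85 and backgrounds up to 7.33 fragments. The summit of the shared peak lay inside the hairpin record of MIR27A, at chr19:13836440-13836517. The main mature products are shown because this summit lies among them, with the seed, bases 2 to 8, in capitals, and no 2 of the 3 share a seed.
hsa-miR-23a-3p: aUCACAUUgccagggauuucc
hsa-miR-27a-3p: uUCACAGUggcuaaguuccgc
hsa-miR-24-3p: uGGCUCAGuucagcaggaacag

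The peak nearest to MIR639 was stronger, with a fold of 12.9 on 41 fragments, 35 bp from the record and near inner starts of both DNAJB1 and TECR.

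Some loci held runs of peaks on a high background. The 82 chromosome 19 peaks with the highest 5% of background, above 5.69 fragments, fell in 26 loci when peaks within 20 kb were joined, and 61 of them lay in 12 loci of 3 or more. Their median fold was 4.10, against 5.13 for the rest, on 40 fragments against 13. The longest run, 15 peaks over 38.7 kb, covered ZFP36, which encodes an mRNA decay factor, PLEKHG2, MED29 and RPS16, with backgrounds up to 22.02 fragments and folds from 2.27 to 8.04. The next, 11 peaks over 20.9 kb, covered MIDN and CIRBP, a cold-inducible RNA-binding protein. At FOSB, an AP-1 subunit, 3 such peaks had folds of 2.87 to 3.36 on up to 42 fragments. The share at gene ends was 40.2% in these 82 peaks and 40.2% in the rest.

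The letters of the promoter windows, 250 bases before to 50 after a start, were counted on both strands, and 1 window per gene was used. On chromosome 19, 311 of 1185 windows held a summit. The others can have a summit nearby, since 484 of the 1185 genes had one within 1 kb of the record's 5′ end. CARM1 and HDGFL2, with summits 383 and 341 bp upstream, are thus among the windows without a summit. CANNTG stood in 53.1% of windows with a summit (47.5 to 58.5%), against 63.7% (60.5 to 66.9%) of the 874 without and 64.6% of all 15841. The E-boxes CACCTG and CAGCTG, preferred by many E proteins, stood in 16.4% and 13.2% of windows with a summit, against 22.1% and 17.7% of those without, and 19.9% and 17.5% of all windows. CTTTGA stood in 7.40% (4.98 to 10.9%), against 11.6% (9.60 to 13.8%) without and 10.99% of all windows. Windows with a summit on the other chromosomes were lower too, with CANNTG in 57.6% against 67.5% and CTTTGA in 6.43% against 12.65%. There CACCTG stood in 17.9% against 20.5% and CAGCTG in 15.6% against 18.3%. Every other E-box named here is also counted as CANNTG.

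Other letters were added after the data were seen, and of these CCAAT and GGGCGG had intervals on chromosome 19 above those of its windows without a summit. CCAAT stood in 49.8% (44.3 to 55.4%) of windows with a summit, against 37.1% (33.9 to 40.3%) without and 36.4% of all windows. The GC box GGGCGG stood in 83.9%, against 59.6% without and 58.3% of all windows. CACGTG stood in 9.65% (6.84 to 13.4%), against 6.98% (5.47 to 8.86%) and 8.83% of all. CCGGAAG, the core of ETS sites, had 19.6% against 18.5%, with 14.1% of all windows, and TGANTCA, the AP-1 letters, 3.54% against 5.84%, with 5.70% of all. Windows of the other chromosomes differed the same way, with CCAAT in 42.7% against 33.7% and GGGCGG in 81.7% against 49.3%. There the intervals were also apart for CCGGAAG, 22.8% against 10.6%, and CACGTG, 11.97% against 7.85%. TGANTCA was lower with a summit there, 4.23% against 6.27%.

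Base composition moved with these shares, since the median GC content was 66.7% in windows with a summit, against 61.7% without. Chromosome 19 windows were split by GC content into a low, a middle and a high class of near-equal size. CCAAT stood in 72.0% of windows with a summit against 47.3% without in the low class, 47.8% against 34.2% in the middle and 43.8% against 25.3% in the high class. CANNTG stood in 64.0% against 71.9%, 55.7% against 63.7%, and 47.3% against 51.5%. GGGCGG stood in 70.0% against 36.4% in the low class, 78.3% against 61.3% in the middle and 93.2% against 92.3% in the high class, which holds 146 of the 311 windows with a summit. CTTTGA stood in 10% against 18.9% and 7.83% against 8.90%, and its order turned in the high class, to 6.16% against 3.86%. CAGCTG turned there too, to 13.7% against 12.9%. The shares of CTTTGA and CAGCTG come from counts of few windows. None of the shares by class has an interval, and the low class holds only 50 windows with a summit. The share of windows with a summit was 12.5% (9.64 to 16.1%) in the low class, 28.3% (24.1 to 32.8%) in the middle and 38.5% (33.8 to 43.5%) in the high class.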

How the data were processed

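DNA from CAL-27 spheres was sequenced in 1 TCF4 antibody and 1 IgG antibody library, grouped by the antibody in the labels. The submitters' processing notes name hg38, Bowtie2 2.3.5.1, MACS2 2.2.7.1 and SAMtools, the last with no version. Settings, the control used and total depth are not given in the sources used here. The deposited file holds, per peak, the authors' fold enrichment (a ratio), −log10 p-value and −log10 q-value at the summit, a score (the −log10 q times 10, cut to a whole number), and the summit offset.

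Fragments at the summit and local background were solved for all 26642 peaks, the fold being (fragments + 1) / (background + 1) and the p-value taken as the upper tail of a Poisson distribution. All 491 simulated peaks were recovered, and of 2000 simulated summits 34.8% lay at a gene end where 35.3% were expected. The simulated peaks were made with the same formulas, over a narrower range of values. Their recovery therefore checks the solving step alone. Genes and starts came from RefSeq tables for GRCh38.p14 (58957 records, 718 on other scaffolds left out). Starts matched 1185 of 1410 chromosome 19 protein-coding genes, and 225 had none. The members, the 19 gene lists and the measures were chosen with earlier results of these data known, and 5 listed genes not on the chromosome were dropped.

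Named genes were the 10 strongest at ends, the 5 strongest peaks away, the 5 with most fragments, the 5 genes with most summits inside, the 3 widest peaks, the fullest and emptiest bins, and, per list, at most 4 genes by fold plus at most 2 lacking a summit at an end. Others are marked in the text, and a few that the rule names are not reported here. Shares have Wilson and densities exact Poisson 95% intervals. Other thresholds, windows, overlaps and spans were tried. Python 3.11.15, NumPy, SciPy, pandas and Matplotlib were used.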

Additional observations from a re-analysis of the deposited data

How the results depend on the processing

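No paired analysis was possible because each antibody has 1 library and no test was made. Values are for chromosome 19, with the other chromosomes after it where named. With a −log10 q of at least 5, density was 14.2 peaks per Mb, the share of summits at gene ends 52.5%, the share of genes 34.0% against 26.9%, median fold 6.85, width 298 bp, background 2.13 fragments and the zinc finger share 15.9%. With at least 10 these were 7.02 per Mb, 63.3%, 21.9% against 13.6%, 8.71, 418 bp, 2.40 fragments and 6.37%. Without the 10% of peaks with the highest background, density was 22.4 per Mb, width 179 bp and background 1.39 fragments. There the share of genes turned, to 35.9% against 37.7%, as did summits per Mb of gene-end sequence, to 101 against 106. The chromosome 19 intervals, 33.4 to 38.4% and 92.1 to 110, span the values of the others. That cut left 506 of 659 gene-end summits on chromosome 19 and 7097 of 7920 elsewhere, so it fell harder on chromosome 19. With a window of 500 bp the share of summits was 32.0% and of genes 38.4%, and with 2000 bp 50.1% and 52.6%. Counting summits within 1 kb once gave 25.1 per Mb, and a span without gene-free stretches of over 1 Mb gave 29.8 per Mb. Without zinc finger genes, an alternative added after seeing the data, 49.1% of genes had a summit, against 41.2%. Of the alternative values, 29 moved past the counting interval of the reported value and 2 turned, and the others stayed within it, except that density over the line of the other chromosomes, 0.768 where 0.789 was reported, has no such interval. The limits are 1 library, no analysed control, peaks of few fragments, gene records without exons, and starts for part of the genes, and the total number of fragments is unknown.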
